A study of Mus musculus with 24 samples.

Results

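The genes described here are 34 listed genes of glycolysis and of the response to low oxygen. They were chosen by name, with earlier results of these data known. Of the 34, 30 were measured by a probe set with 1 gene symbol, among 12393 genes so measured on the array. Gpi1 and Eno1 had no probe set with 1 symbol, and Bnip3l shared its probe sets with a pseudogene. Gapdh, the glyceraldehyde phosphate dehydrogenase, was present through the control probe sets of the array, which were left out of the tests. Adm, the vasodilator peptide adrenomedullin, lay below the background level of 60 on all 24 arrays, so at most 29 members could be tested. A gene with several probe sets is read on the brightest one, by the mean of the 24 arrays.

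All samples were blood progenitors of C57BL/6 mice, and they made up 7 groups of arrays. Granulocyte monocyte progenitors (GMP), which give rise to neutrophils and monocytes, were spin-infected with an empty GFP vector (GFP, 3 arrays) or with the leukemia fusion genes MOZ-TIF2 (MT2, 4), NUP98-HOXA9 (NHA9, 3) or AML1-ETO (AE, 4). Their GFP-positive cells were lysed 36 hours later. The remaining groups were sorted and lysed without that infection and culture: normal GMP (4), normal LSK cells (3, titled HSC), a marrow fraction that holds the stem cells, and GMP-like leukemic stem cells of a MOZ-TIF2 leukemia model (L-GMP, 3). The promoter that drove each oncogene, the age of the animals, whether animals were pooled and how many leukemias gave the L-GMP samples are not given in the sources used here. Nor do the labels say whether replicates were separate animals or infections, so the p-values speak only of the scatter among these samples, and that scatter may be technical.

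Levels are log2 values, and 60 is 5.91 on that scale; a difference of 1 is a doubling. The share of probe sets over 60 was 46.1% to 48.3% on each array, and no pair of arrays was identical. All 8 GMP markers lay over 60 on every array of the 6 groups other than L-GMP, where 7 did. In LSK cells 5 of the 6 measured stem cell markers did so, and Mecom was under 60 on all arrays. File names carry a tag that sorts the arrays into A, B or none; its meaning is not stated. All GFP arrays have tag A, against 3 of 4 GMP, 3 of 4 MT2, 2 of 3 NHA9, 1 of 4 AE, 2 of 3 LSK and 1 of 3 L-GMP arrays. L-GMP 1 stood apart, with the widest gap between the 3′ and 5′ Gapdh control probe sets (4.82 on the log2 scale, against 2.50 to 4.51 on the other arrays).

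Glycolysis splits glucose into pyruvate in the cytosol. Glucose enters through transporters of the Slc2a family, hexokinase traps it by phosphorylation, and phosphofructokinase sets the pace of the pathway. Lactate dehydrogenase turns pyruvate into lactate, which the transporter Slc16a3 carries out of the cell, while pyruvate dehydrogenase kinases keep pyruvate out of the mitochondria. When oxygen is low, prolyl hydroxylases (Egln1, Egln3) stop marking the factor Hif1a for destruction, and it binds short elements near many of these genes and raises their transcription. Stem and progenitor cells of the bone marrow are known for low oxygen tension in parts of their niche and for the use of glycolysis.

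Promoter sequences were matched by symbol for 31 of the 34 members, in the RefSeq promoter table of build GRCm38.p6; Bnip3l, Slc2a3 and Ndrg1 had no match. The 250 bases before each annotated start site were searched on both strands for the hypoxia response core, ACGTG or GCGTG. The first form is also part of the E-box CACGTG, so that each E-box counts as a core on both strands. At least 1 core was present in 37 of the 45 promoters of members (82.2%) and in 12679 of 32851 promoters in the table (38.6%); some promoters of 1 gene overlap. The E-box was present in 5 of 45 (11.1%) and in 6.0% of all. A match describes the letters and is not evidence of a site. Shown are the 5 members with the largest increase from fresh to GFP-transduced GMP, and Ldhb, the member that fell in that comparison. Each runs 5′ to 3′ on the strand of its gene and ends at the base before the start site, and capitals mark the cores.
Bnip3 (chr7:138909507-138909756, minus strand): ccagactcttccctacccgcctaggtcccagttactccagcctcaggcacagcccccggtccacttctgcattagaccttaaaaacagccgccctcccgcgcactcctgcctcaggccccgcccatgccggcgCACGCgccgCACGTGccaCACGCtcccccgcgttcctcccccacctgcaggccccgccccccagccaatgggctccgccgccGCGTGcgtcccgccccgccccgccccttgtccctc
Ddit4 (chr10:59951771-59952020, minus strand): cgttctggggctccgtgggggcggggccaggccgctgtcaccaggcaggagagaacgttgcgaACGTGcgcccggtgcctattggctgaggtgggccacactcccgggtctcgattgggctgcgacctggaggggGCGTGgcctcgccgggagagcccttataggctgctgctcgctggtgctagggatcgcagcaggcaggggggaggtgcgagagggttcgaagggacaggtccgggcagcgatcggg
Slc2a1 (chr4:119108495-119108744, plus strand): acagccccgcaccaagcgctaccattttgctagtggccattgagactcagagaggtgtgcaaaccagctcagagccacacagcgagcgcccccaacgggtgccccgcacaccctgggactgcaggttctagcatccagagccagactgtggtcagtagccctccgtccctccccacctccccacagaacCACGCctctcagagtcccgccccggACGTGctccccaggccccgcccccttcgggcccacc
Slc16a3 (chr11:120948817-120949066, plus strand): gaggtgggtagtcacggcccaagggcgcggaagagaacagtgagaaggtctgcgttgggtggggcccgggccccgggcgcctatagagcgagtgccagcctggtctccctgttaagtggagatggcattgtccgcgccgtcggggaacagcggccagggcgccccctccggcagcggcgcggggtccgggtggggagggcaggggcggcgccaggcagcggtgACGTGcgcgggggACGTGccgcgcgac
Egln3 (chr12:54203875-54204124, minus strand): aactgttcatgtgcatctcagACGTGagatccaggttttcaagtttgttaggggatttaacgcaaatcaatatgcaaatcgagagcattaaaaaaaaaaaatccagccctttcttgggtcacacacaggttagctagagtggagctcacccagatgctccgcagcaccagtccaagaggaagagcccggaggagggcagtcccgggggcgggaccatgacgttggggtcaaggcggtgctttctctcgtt
Ldhb (chr6:142507958-142508207, minus strand): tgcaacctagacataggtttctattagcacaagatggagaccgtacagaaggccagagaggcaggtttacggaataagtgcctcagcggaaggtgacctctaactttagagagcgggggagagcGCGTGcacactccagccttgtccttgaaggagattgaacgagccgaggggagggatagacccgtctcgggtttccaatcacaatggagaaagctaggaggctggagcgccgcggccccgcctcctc
Bnip3 held 5 cores in this window, of which a pair makes up its E-box. Ddit4, Slc2a1 and Slc16a3 held 2 each, with those of Slc16a3 beginning 27 and 14 bases before the start site. Egln3 and Ldhb held 1 core each, although one of these genes rose and the other fell.

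Among the 10 comparisons made, the highest count of called members was found between the 2 control groups, GFP-transduced GMP after 36 hours and fresh GMP; no oncogene group was compared with fresh GMP. Of 29 members tested, 23 rose and 1 fell, which is 82.8% of them, while 15.7% of all 11363 probe sets tested passed in either direction and 8.25% rose. Slc16a3, Aldoc and P4ha2, among the 23, had no GMP array over 60 and were tested through their GFP arrays alone. The median member differed by 1.60, against -0.04 over all probe sets. Infection, culture and sorting for GFP all separate these groups and cannot be told apart, nor can fewer cells of a type be told from less RNA per cell in bulk samples. Within tag A alone, 25 members rose and 1 fell.

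Among the transporters, Slc2a1, the basal glucose carrier, measured 6.51, 6.15, 6.73 and 6.98 on the 4 GMP arrays and 9.80, 9.70 and 9.76 on the GFP arrays. The groups were far from overlapping, and the gene rose by 3.16 (SE 0.20, adjusted p = 2.35e-05), an 8.91-fold increase. The lactate exporter Slc16a3 was below background on all GMP arrays (5.48, 5.76, 5.34 and 5.21) and at 8.29, 8.11 and 8.68 in GFP. Its fitted difference was 2.91 (SE 0.19, adjusted p = 2.88e-05), at least 5.48-fold when set against the background level. Slc2a3, the high-affinity glucose carrier, overlapped between the groups and differed by 0.10 (SE 0.35, adjusted p = 0.882). The 2 glucose carriers thus had different results in the same samples; their difference from each other was not tested.

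In upper glycolysis 6 of 9 members rose. The aldolases moved the most: Aldoc was under 60 on every GMP array (5.44, 5.87, 4.91 and 4.90) and reached 7.82, 7.34 and 8.57 in GFP, a difference of 2.63 (SE 0.33, adjusted p = 0.00094) or at least 4-fold. Aldoa, which splits fructose bisphosphate in most tissues, went from 10.63 ± 0.20 (SD, n = 4) to 12.48 ± 0.06 (n = 3), a 3.61-fold rise. The phosphofructokinase subunits parted: Pfkl rose by 1.61 (SE 0.20) and Pfkp by 1.52 (SE 0.17), whereas the muscle form Pfkm stayed at 7.09 ± 0.28 against 7.08 ± 0.11, a difference of 0.02 (SE 0.17, adjusted p = 0.957). Hk2, the inducible hexokinase, read 8.85, 8.76, 8.71 and 8.95 in GMP and 9.72, 9.53 and 9.73 in GFP, and rose by 0.84 (SE 0.14, adjusted p = 0.00413). Hk1, the housekeeping hexokinase, differed by 0.47 (SE 0.21, adjusted p = 0.168), and Pfkfb3, which makes the activator of phosphofructokinase, by 0.75 (SE 0.22, adjusted p = 0.0528). The triose phosphate isomerase Tpi1, which joins upper and lower glycolysis, rose by 1.64 (SE 0.20).

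All 3 measured enzymes of lower glycolysis rose, by less than the aldolases. The pyruvate kinase Pkm rose by 1.28 (SE 0.15), the phosphoglycerate kinase Pgk1 by 0.76 (SE 0.13) and the mutase Pgam1 by 0.69 (SE 0.16, adjusted p = 0.0213). Pgam1 lost its call when GMP 1, GMP 3 or any GFP array was left out. The 3′ Gapdh control probe set, given without a test, read 12.98 to 13.16 in GMP and 13.56 to 13.64 in GFP.

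The lactate dehydrogenase subunits moved in opposite directions. Ldha, the subunit that favours lactate, measured 10.45, 10.09, 9.83 and 10.41 in GMP and 11.67, 11.82 and 11.88 in GFP. It rose 3.02-fold (difference 1.60, SE 0.18, adjusted p = 0.000655). Ldhb, the subunit that favours pyruvate, was tightly spread at 8.77, 8.65, 8.81 and 8.74 in GMP and 8.03, 7.96 and 8.11 in GFP. It fell by 0.71 (SE 0.13, adjusted p = 0.00725) and was the only member to fall. With the tag as a factor over 24 arrays the same difference had an adjusted p of 0.0748. In 1 fit over 24 arrays without the tag it was 0.126. Of the kinases that inhibit pyruvate dehydrogenase, Pdk1 rose from 9.58, 9.43, 9.93 and 9.87 to 10.69, 10.57 and 10.80 (difference 0.98, SE 0.17, adjusted p = 0.00487), and Pdk3 differed by 0.09 (SE 0.18, adjusted p = 0.793).

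All 3 genes of oxygen sensing rose. Hif1a RNA read 7.42, 7.23, 7.55 and 7.89 in GMP and 9.47, 9.52 and 8.54 in GFP, with GFP 3 the lowest of the latter, and rose by 1.66 (SE 0.26, adjusted p = 0.00349). These arrays measure its RNA, whereas oxygen acts on its protein. The prolyl hydroxylase Egln3, itself a known Hif1a target, stood at 7.93, 7.52, 8.23 and 8.39 against 10.89, 10.55 and 10.99. That is a 6.94-fold rise (difference 2.79, SE 0.23, adjusted p = 8.6e-05), against 0.86 (SE 0.18) for Egln1, the main oxygen sensor, on the log2 scale. Without GFP 3 the difference of Egln1 was 0.76 (adjusted p = 0.0559).

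Each of the 7 tested members among the other hypoxia targets rose, with P4ha2 tested through its GFP arrays alone. Bnip3, which promotes the removal of mitochondria, had the largest difference of all members: 7.40, 6.79, 7.74 and 7.94 in GMP and 11.99, 11.68 and 12.04 in GFP, a 21.6-fold rise (difference 4.43, SE 0.26, adjusted p = 1.7e-05). Ddit4, an inhibitor of mTORC1 that also answers to other stresses, lay near background in GMP (6.21, 5.23, 5.94 and 6.26) and at 9.79, 10.02 and 10.61 in GFP, a difference of 4.23 (SE 0.29, adjusted p = 3.35e-05). Both genes had every GFP array far above every GMP array. The angiogenic factor Vegfa went from 6.09, 6.06, 5.96 and 6.35 to 8.60, 7.75 and 8.11, a rise of 2.04 (SE 0.21, adjusted p = 0.000339). Ndrg1, a stress-responsive gene, rose by 2.06 (SE 0.29) and the collagen prolyl hydroxylase subunit P4ha1 by 1.85 (SE 0.35). Its relative P4ha2 rose by 1.93 (SE 0.35), but with GFP arrays at 6.01, 4.66 and 6.26 its GFP mean was below background, and no fold is given. The mitochondrial protein Higd1a rose by 1.05 (SE 0.21, adjusted p = 0.0107), a call lost without GFP 2 (adjusted p = 0.0513), without GFP 3 (0.0537) and with the mean of its probe sets (0.70, adjusted p = 0.0843).

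**Figure D1:**
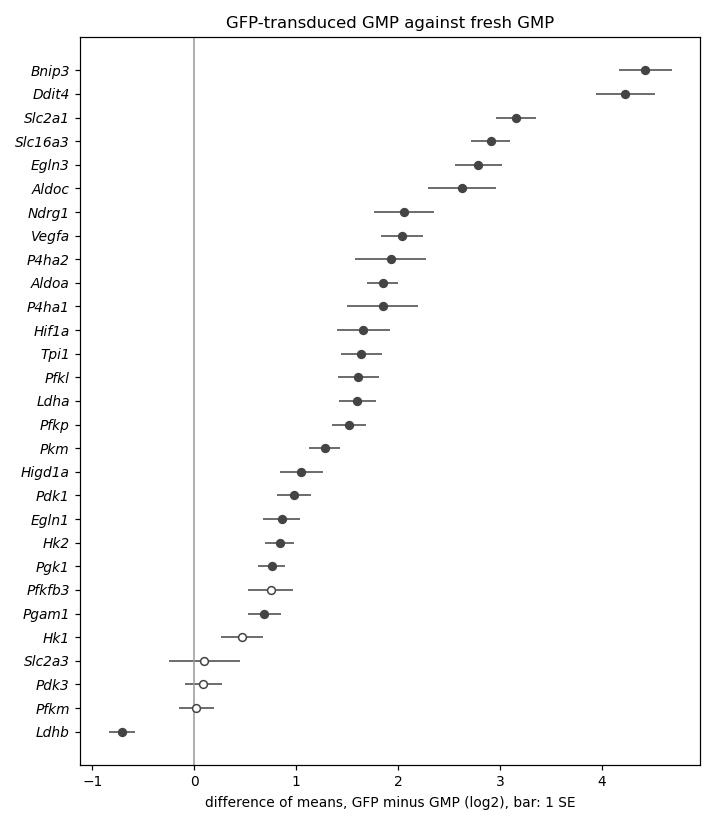
Difference of the group means, GFP minus GMP, on the log2 scale (x axis) for the 29 tested members (y axis, by size); points are differences, bars are 1 SE, filled points passed the adjusted threshold of 0.05. Filled points run from Bnip3 at 4.43 down to Ldhb at -0.71; 5 members are open.

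Beyond the members, the same comparison was read in lists of related genes. Of 27 tested genes in a list of other hypoxia response genes, 19 rose and 1 fell (74.1%, where 15.7% of all probe sets passed). Bhlhe40, a transcription repressor, rose by 2.48 (SE 0.15, at least 3.38-fold). The heme oxygenase Hmox1 rose by 2.80 (SE 0.22), the oxidoreductase Ero1a of the endoplasmic reticulum by 2.37 (SE 0.19) and Anxa2, a membrane-binding annexin, by 2.36 (SE 0.21). Angptl4, a lipase inhibitor, was the gene that fell (by 1.14, SE 0.20). Of 22 other genes of glycolysis, glycogen and pyruvate, 6 rose and 1 fell (31.8%). Pygl, which breaks down glycogen, rose by 1.50 (SE 0.13), and Fbp1, which runs the phosphofructokinase step in reverse, fell by 1.05 (SE 0.17). The pentose phosphate list had 1 of 9 higher (Pgd, 0.76, SE 0.17), or 11.1%. The citric acid cycle list had 1 of 19 higher (Idh1) and 1 lower (Idh2), or 10.5%. Both shares were below that of all probe sets.

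Marker genes of cell types moved in this comparison too, where 15.7% of all probe sets passed. All 3 tested macrophage markers rose, and the summed linear level of that list was 407 to 629 in GMP and 1244 to 1483 in GFP; its marker Mrc1 was under 60 on all arrays of both groups. Of 6 mature neutrophil markers 3 rose and 2 fell, with sums of 6389 to 15480 in GMP and 10310 to 11960 in GFP. Lower in GFP were 3 of 4 tested LSK markers (median -1.18), 2 of 3 erythroid and 2 of 3 megakaryocyte markers (median -1.49). The gap between the 3′ and 5′ Gapdh control probe sets was 2.71 to 3.60 in GFP and 3.40 to 4.33 in GMP. The part of these cells and of RNA quality in the result was not tested.

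Across all 24 arrays the transduced groups stood above the freshly sorted ones. For 13 of 30 members every one of the 14 transduced arrays was above every one of the 10 freshly sorted arrays (Slc2a1, Pfkl, Pfkp, Aldoa, Pgk1, Pkm, Ldha, Hif1a, Egln1, Egln3, Vegfa, Bnip3 and Higd1a), and for 0 members was every one below. How many of all measured genes split in this way was not counted, so the 13 cannot be set against the array. Nor were the counts of group means and of pairs that follow made for all genes. The lowest group mean was found in LSK for 14 members, in GMP for 7 and in L-GMP for 7. The highest was found in AE for 12, in NHA9 for 8, in GFP for 6, in LSK for 3 and in MT2 for 1. As a description, the 435 pairs of members had a median Pearson r of 0.73 over the 24 arrays, which share the split between transduced and fresh cells; 235 pairs were over 0.7 and 4 under -0.7. Those with the lowest r all involve Ldhb, at -0.79 with Pfkp, -0.77 with Tpi1 and -0.72 with Ldha. Among 7789 genes, the ones closest to Slc2a1 over the 24 arrays were Bnip3 (r = 0.97), Ccr1 (0.97), Csf2rb2 (0.96), Ctsl (0.95) and Bhlhe40 (0.95).

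**Figure D2:**
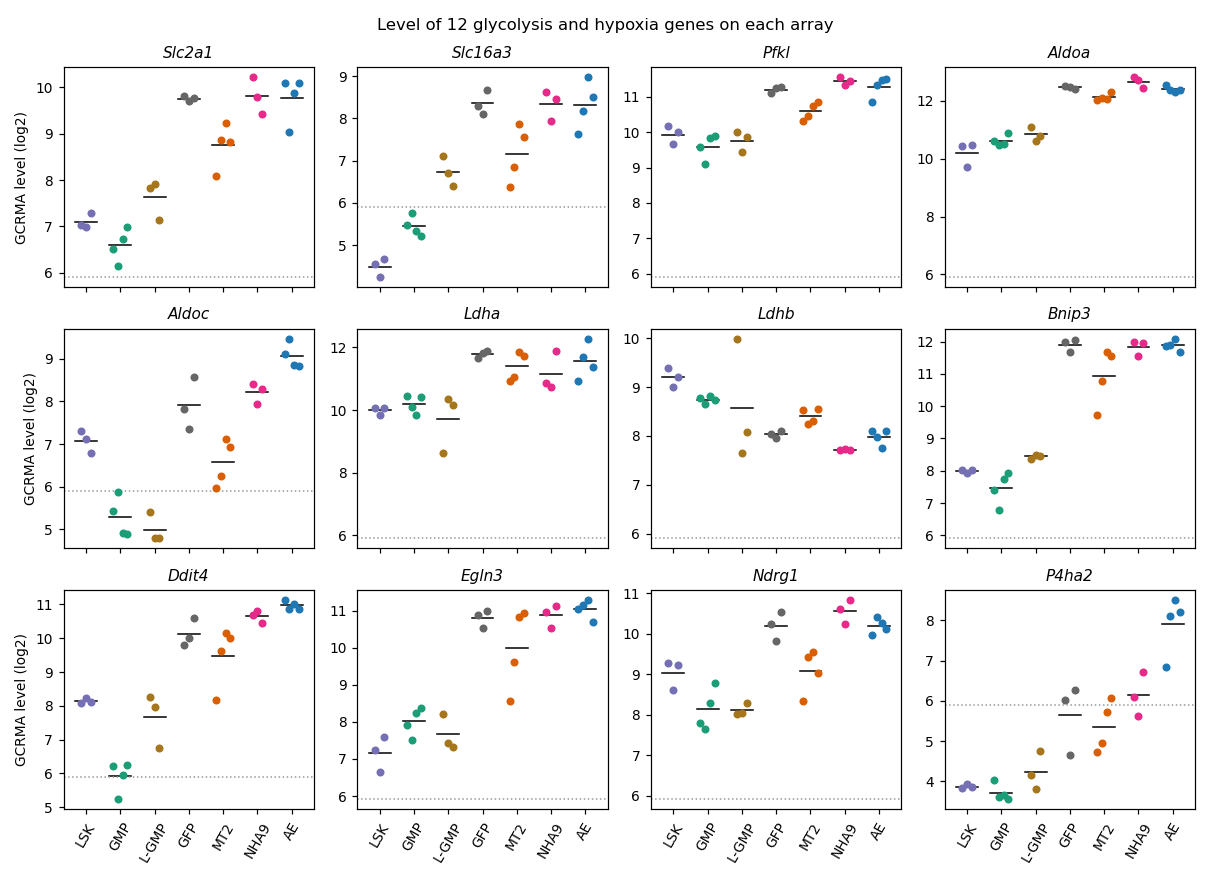
Deposited log2 level (y axis, a separate range in each panel) of 12 members on each array, by group (x axis); points are arrays, black lines are group means, and the dotted line is the background level of 60 (5.91). The GFP, MT2, NHA9 and AE arrays all lie above fresh cells for Slc2a1 and Bnip3, with MT2 arrays lower than GFP arrays for Slc2a1, Slc16a3, Pfkl, Aldoc and Ndrg1.

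The study's first comparison set all 11 oncogene arrays against the 3 GFP arrays. limma called 0 of 29 members, where 0% of 11632 probe sets were called, and at an unadjusted p under 0.05 there were 0 members and 1250 probe sets; the methods' t-test called 1 member, Pgk1, at -0.19 (adjusted p = 0.0416). Of the members 21 lay lower and 8 higher, with a median of -0.08 against 0.08 for all probe sets. The 3 oncogene groups differed from each other in these genes, as the separate comparisons show.

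In MT2 cells 5 members fell against GFP and 0 rose, out of 29; that is 17.2%, where 11.8% of 11113 probe sets passed and 2.93% fell. After quantile normalization 6 members fell and 0 rose, while 503 of all probe sets fell and 693 rose, against 326 and 990 on the deposited scale. They were both of the transporters that were higher in GFP than in fresh GMP, 2 upper glycolytic enzymes and Ndrg1. Of the members 26 lay lower in MT2, with a median of -0.28 against 0.07 over all probe sets, and most did not pass the test.

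Slc2a1 read 8.09, 8.87, 9.23 and 8.81 in MT2, all below the lowest GFP array at 9.70, and fell by 1.00 (SE 0.22, adjusted p = 0.0215), a 2-fold lower level. It was still above every fresh GMP array. Slc16a3 read 6.38, 6.84, 7.86 and 7.55 and fell by 1.20 (SE 0.31, adjusted p = 0.0351). Aldoc, at 5.97, 6.26, 7.11 and 6.93, fell by 1.34 (SE 0.32, adjusted p = 0.0278), the largest difference of the list in this comparison. Pfkl, the liver-type phosphofructokinase, read 10.30, 10.45, 10.74 and 10.85 in MT2 against 11.10, 11.25 and 11.26 in GFP, and fell by 0.62 (SE 0.15, adjusted p = 0.0266). Ndrg1 read 8.35, 9.42, 9.54 and 9.02 against 10.24, 9.81 and 10.54 and fell by 1.12 (SE 0.27, adjusted p = 0.0298). The groups did not overlap for any of the 5; they came closest for Aldoc, between MT2 3 at 7.11 and GFP 2 at 7.34.

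Several hypoxia targets were lower without passing, with MT2 1 the lowest array. Bnip3 read 9.74, 10.79, 11.66 and 11.56 (difference -0.97, SE 0.39, adjusted p = 0.128), and Egln3 8.57, 9.61, 10.83 and 10.94 (-0.82, SE 0.48, adjusted p = 0.28). MT2 1 was also lowest for Ddit4, at 8.16 against 9.63, 10.15 and 10.00. In contrast, Hif1a RNA was at 9.68, 9.38, 9.14 and 9.48, which overlaps GFP (0.24, SE 0.23, adjusted p = 0.51), and Vegfa differed by -0.10 (SE 0.21, adjusted p = 0.776). Ldha differed by -0.40 (SE 0.22, adjusted p = 0.251), Hk2 by -0.39 (SE 0.15, adjusted p = 0.127) and Pdk1 by -0.37 (SE 0.18, adjusted p = 0.194). Ldhb was the highest of the differences, at 0.37 (SE 0.12, adjusted p = 0.068).

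The calls of this comparison rest on few arrays. Without GFP 1, GFP 2 or GFP 3 in turn 0 members were called, and without MT2 1 or MT2 2 there were 2 (Slc2a1 and Ndrg1), while the differences of the 5 kept their sign and ran from -0.78 to -1.16 for Slc2a1 and from -0.95 to -1.63 for Aldoc over all alternatives. Within tag A, 5 members were lower, with Slc2a1 at -1.02 (adjusted p = 0.0427) and Aldoc at -1.46 (adjusted p = 0.0403). Aldoa passed there at -0.41 and Ndrg1, at -1.09 (adjusted p = 0.0636), did not. With the tag as a factor over 24 arrays, Slc2a1 lost its call (adjusted p = 0.0629), and the other members called in the main fit kept theirs. In 1 fit over 24 arrays without the tag, Slc2a1 (adjusted p = 0.067) and Pfkl (adjusted p = 0.132) lost their calls. Mature neutrophil markers moved alongside: 3 of 6 fell, and their summed linear level was 3072 to 6109 in MT2 against 10310 to 11960 in GFP. Their part in the result was not tested.

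Of 27 other hypoxia response genes 4 fell in MT2 and 0 rose (14.8%, where 11.8% of all probe sets passed and 2.93% fell). They were Anxa2 (by 1.25, SE 0.26), Bhlhe40 (by 1.20, SE 0.26), the transferrin receptor Tfrc (by 0.76, SE 0.18) and Hif3a (by 0.49, SE 0.12). In the list of 21 other glycolysis genes 9.52% were called. The monocarboxylate carrier Slc16a1 rose by 0.70 (SE 0.14), the opposite sign to its relative Slc16a3, and Pygl fell by 0.71 (SE 0.17). The pentose phosphate list had 0 of 9 called, with 2 at an unadjusted p under 0.05.

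NHA9 cells had 0 of 29 members called against GFP, where 0.200% of 10981 probe sets passed; 3 members and 1154 probe sets had an unadjusted p under 0.05, and the methods' t-test called 0 members. The largest positive difference was that of Slc2a3, at 8.40, 7.76 and 8.51 against 7.86, 6.90 and 7.41 in GFP (0.83, SE 0.27, adjusted p = 0.358). The largest negative one was that of Ldha, at 10.85, 10.73 and 11.88 (-0.64, SE 0.28, adjusted p = 0.476), where NHA9 3 stands with GFP and the other arrays do not. The levels of Slc2a1 were 10.21, 9.78 and 9.42 and those of Bnip3 12.00, 11.56 and 11.95, both overlapping GFP, with differences of 0.05 (SE 0.20) and -0.07 (SE 0.17). Ldhb read 7.72, 7.74 and 7.71, each below every GFP array (-0.32, SE 0.12, adjusted p = 0.428). Without NHA9 3, the one array of the group outside tag A, Ldha fell by 1.00 (adjusted p = 0.0147), and these are also its values within tag A. With this few arrays, a p over the threshold does not show that the groups are alike.

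AE cells had 3 members higher than GFP and 0 lower, out of 29 or 10.3%, where 11.0% of 11393 probe sets passed; the share is close to the background. P4ha2, one of the catalytic subunits of collagen prolyl hydroxylase, read 6.84, 8.11, 8.51 and 8.20 in AE against 6.01, 4.66 and 6.26 in GFP. It rose by 2.27 (SE 0.45, adjusted p = 0.0124), at least 4.02-fold over background. Aldoc read 9.10, 9.47, 8.84 and 8.83 and rose by 1.15 (SE 0.28, adjusted p = 0.0293), and Ddit4 read 11.14, 10.86, 11.00 and 10.88 and rose by 0.83 (SE 0.20, adjusted p = 0.0284). For all 3 genes, every AE array lay above every other array of the 24. AE 1, the AE array with tag A, was the lowest for P4ha2; against GFP it alone gave 1.20 for P4ha2 (adjusted p = 0.162), 1.19 for Aldoc (0.0816) and 1.00 for Ddit4 (0.0594). These values speak of that array alone, its spread being taken from the GFP arrays. Without GFP 2 the count was 0, without GFP 1 or AE 2 it was 1 (P4ha2), and without AE 1 it was 5, with Hk1 (0.60) and Egln1 (0.49) added. Ddit4 kept its call in 2 of 7 fits that left out an array. With the tag as a factor over 24 arrays Ddit4 differed by 0.60 (adjusted p = 0.408), and in 1 fit over 24 arrays by 0.83 (adjusted p = 0.164).

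No other member of AE cells passed the test against GFP. Slc2a1 read 10.08, 9.03, 9.87 and 10.08 (0.02, SE 0.24, adjusted p = 0.976), Bnip3 11.86, 11.90, 12.09 and 11.69 (-0.02, SE 0.16) and Egln3 11.05, 11.17, 11.30 and 10.71 (0.25, SE 0.18). Slc2a3 differed by 0.61 (SE 0.30, adjusted p = 0.209), Hk1 by 0.41 (SE 0.21, adjusted p = 0.23) and P4ha1 by 0.66 (SE 0.25, adjusted p = 0.119). Pkm gave the largest negative difference, -0.45 (SE 0.16, adjusted p = 0.0912), and its AE arrays lay below all GFP arrays. In the list of 29 other hypoxia response genes 5 rose and Tfrc fell by 1.66 (SE 0.26), or 20.7%, where 11.0% of all probe sets passed. Among those that rose were Hmox1 (1.54, SE 0.30), Plod1, a collagen lysyl hydroxylase (1.05, SE 0.24), and Pnrc1 (0.82, SE 0.18). Fbp1, which was lower in GFP than in fresh GMP, rose by 1.74 (SE 0.23). GMP markers moved with this group, with 4 of 8 lower and Cd34 higher; their summed level was 27750 to 37750 in AE and 43620 to 48170 in GFP. Megakaryocyte markers summed to 1984 to 4742 in AE and 411 to 673 in GFP, with 1 of 2 tested higher, as were 1 of 3 macrophage and 1 of 2 lymphoid markers. Their part in the result was not tested.

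**Figure D3:**
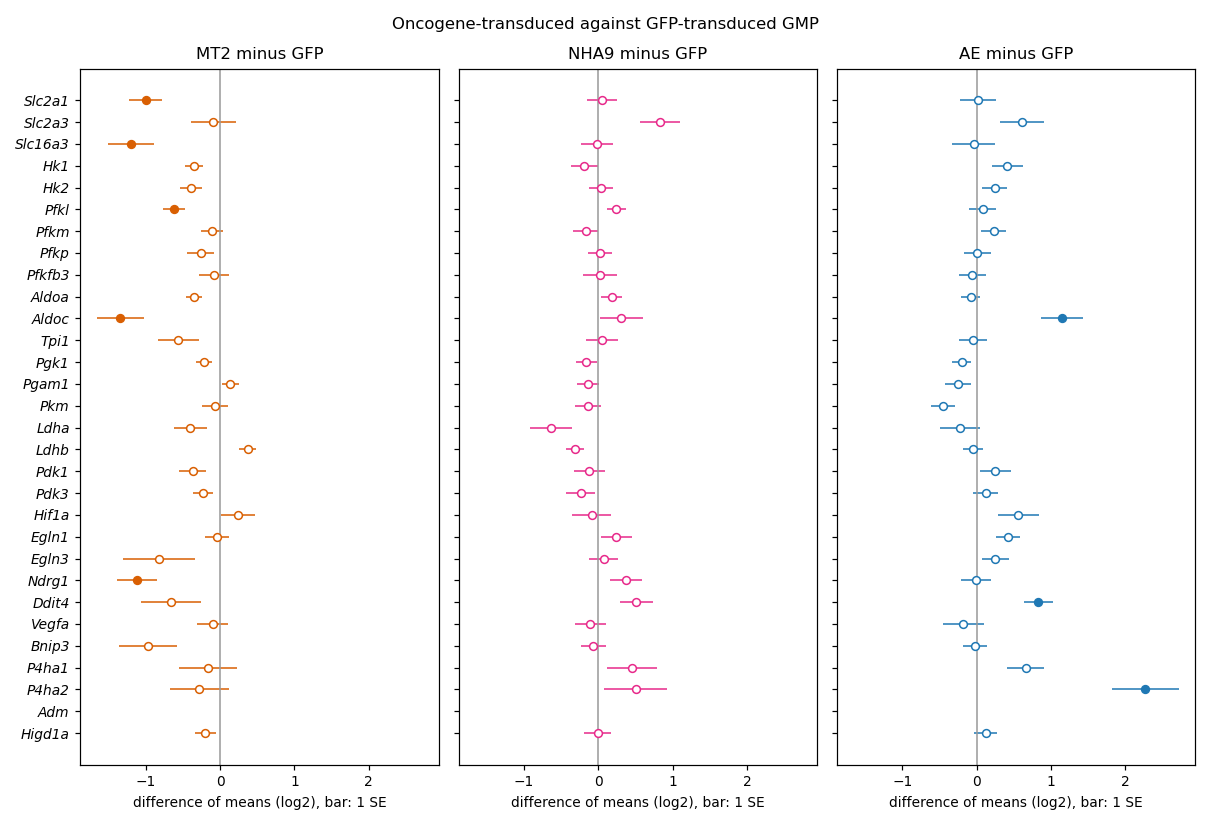
Differences of group means on the log2 scale (x axis) for each member (y axis, in pathway order), from left to right for MT2, NHA9 and AE against the same 3 GFP arrays; bars are 1 SE, filled points passed the adjusted threshold of 0.05, and Adm was not tested. Filled points lie to the left for MT2 (Slc2a1, Slc16a3, Pfkl, Aldoc, Ndrg1) and to the right for AE (Aldoc, Ddit4, P4ha2).

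Since these comparisons share the GFP arrays, the oncogenes were also set against each other directly, in a fit over the 14 transduced arrays. Against NHA9, MT2 had 6 members lower and 1 higher of 29 (24.1%, where 7.52% of 11171 probe sets passed). Ndrg1 (-1.48, SE 0.26, adjusted p = 0.00422), Aldoc (-1.65, SE 0.30, adjusted p = 0.00543) and Pfkl (-0.85, SE 0.17, adjusted p = 0.00875) were lower by the most relative to their error. Aldoa, Slc2a1 and Slc16a3 were lower too. Ldhb was higher by 0.69 (SE 0.13, adjusted p = 0.00568), and its MT2 arrays (8.24 to 8.55) lay above all NHA9 arrays (7.71 to 7.74). Aldoc, Ndrg1 and Ldhb kept their calls without any single array, but Ldhb differed by 0.45 (adjusted p = 0.361) with the tag as a factor and lost its call in 1 fit over 24 arrays (adjusted p = 0.255). Slc16a3 kept its call in 3 of 14 fits that left out an array and Slc2a1 in 9 of 14; the count fell to 4 without MT2 1 or NHA9 2 and to 3 without NHA9 1. Mature neutrophil markers were lower in MT2 here too, 3 of 6 past the test and all 6 lying lower (median -1.33), with sums of 9149 to 12240 in NHA9 against 3072 to 6109 in MT2. The 3 tested macrophage markers lay lower without passing (median -0.68). The part of these cells in the result was not tested.

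Against AE, MT2 had 11 members lower and 1 higher of 29, which is 41.4% where 28.5% of 11411 probe sets passed. The lower members reached from the transporters Slc2a1 (-1.02, SE 0.26) and Slc16a3 (-1.16, SE 0.32) through both hexokinases (Hk1 -0.76, SE 0.18; Hk2 -0.63, SE 0.17), Pfkl (-0.70, SE 0.16) and Aldoc (-2.49, SE 0.28, adjusted p = 3.13e-05) to Pdk1 (-0.62, SE 0.22). Among the hypoxia targets, P4ha2 (-2.55, SE 0.42, at least 4.02-fold), Ddit4 (-1.49, SE 0.33), Ndrg1 (-1.11, SE 0.24) and Bnip3 (-0.95, SE 0.31) were lower. P4ha2 had 1 of 4 MT2 arrays over 60 and was tested through its AE arrays alone. Ldhb was again the member that was higher (0.43, SE 0.12, adjusted p = 0.0133); within tag A it differed by 0.25 (adjusted p = 0.221), and the call was lost too with the tag as a factor (adjusted p = 0.263) and in 1 fit over 24 arrays (adjusted p = 0.326). Left out in turn, the 14 arrays each left the calls of 10 members in place; Pdk1 kept its call in 4 of the 14 fits and lost it with quantile normalization (adjusted p = 0.0532), and Bnip3 kept its call in 10, with a difference of -0.55 (adjusted p = 0.07) without MT2 1. No lower glycolytic enzyme passed: Pkm differed by 0.38 (SE 0.17), Pgam1 by 0.40 (SE 0.15) and Pgk1 by -0.01 (SE 0.11). Within tag A, AE is the single array AE 1, and values there speak of that array. MT2 then differed from it by -2.65 in Aldoc, -1.13 in Bnip3, -0.86 in Ndrg1, -0.60 in Slc16a3, -0.35 in Pfkl and -0.21 in Hk1. These 6 values are sizes only, and no call is read from them. Over all tags, Hk1 lost its call with the mean of its probe sets (-0.57, adjusted p = 0.132). Bnip3 lost its call with the tag as a factor (-0.70, adjusted p = 0.0921). Cell type markers moved with this contrast as well. Of 8 GMP markers 6 were higher and 2 lower in MT2, 3 of 6 mature neutrophil markers were lower (median -1.13), and 1 of 2 megakaryocyte and 1 of 1 lymphoid markers tested were lower; their part in the result was not tested.

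NHA9 against AE had 1 member lower (3.45%, where 7.23% of 11377 probe sets passed), P4ha2, by 1.77 (SE 0.45, adjusted p = 0.0275), a call lost without NHA9 1, NHA9 2, AE 2, AE 3 or AE 4; the count was 2 without NHA9 3 (with Hk1) and 3 without AE 1 (with Hk1 and Hif1a).

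Between the normal populations, LSK cells had 4 members higher and 3 lower than GMP, of 27 tested (25.9%, where 15.1% of 11452 probe sets passed). The higher ones were Slc2a3 (9.48, 9.52 and 9.86, against 7.22, 6.41, 7.78 and 7.73), by 2.33 (SE 0.32, adjusted p = 0.00193) or 5.03-fold, and Ddit4 (8.08, 8.22 and 8.12), by 2.23 (SE 0.25, adjusted p = 0.000722). Aldoc (7.31, 7.12 and 6.79) was higher by 1.79 (SE 0.26, adjusted p = 0.00254), at least 2.24-fold, and Pfkm by 0.95 (SE 0.20, adjusted p = 0.0124). Aldoc had no GMP array over 60 and was tested through its LSK arrays alone. The lower ones were Pgam1 (difference -1.23, SE 0.18, adjusted p = 0.00249), Pfkp (-0.91, SE 0.19, adjusted p = 0.0133) and Hk2 (-0.77, SE 0.15, adjusted p = 0.00962). No array of either group crossed into the other for these 7 genes.

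Slc2a1 differed by 0.51 (SE 0.21, adjusted p = 0.143) between LSK and GMP, Ldha by -0.21 (SE 0.19, adjusted p = 0.502) and Hif1a by 0.30 (SE 0.23, adjusted p = 0.425). Pdk1, at 10.05, 10.18 and 9.92, differed by 0.35 (SE 0.17, adjusted p = 0.222), and Egln3, at 7.24, 6.64 and 7.59, by -0.86 (SE 0.27, adjusted p = 0.0653). Slc2a3, Ddit4, Aldoc and Pgam1 kept their calls without any single array; without LSK 1 or LSK 2 these 4 were the count. Within tag A 4 members were higher and 3 lower. In the other lists, 3 of 9 pentose phosphate genes were lower in LSK (33.3%, where 15.1% of all probe sets passed), Pgd by 1.01 (difference -1.01, SE 0.19). Of 25 other hypoxia response genes 3 were higher and 5 lower (32.0%), with Rora higher by 1.92 (SE 0.16) and Ero1a at -1.54 (SE 0.24).

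In leukemic GMP 2 of 27 members were higher than in normal GMP and 0 lower (7.41%, where 4.86% of 11439 probe sets passed). With 2 genes called, the share is close to that of all probe sets. One of the 2, Slc16a3, had no GMP array over 60 and was tested through its L-GMP arrays alone. Slc16a3 read 7.10, 6.70 and 6.40, over background on all 3 arrays while no GMP array was, and was higher by 1.29 (SE 0.23, adjusted p = 0.0159), at least 1.78-fold. Ddit4 read 8.25, 7.96 and 6.76 and was higher by 1.75 (SE 0.39, adjusted p = 0.0373). Slc2a1 (7.83, 7.91 and 7.14) and Bnip3 (8.36, 8.48 and 8.47) lay above every GMP array, with differences of 1.03 (SE 0.27, adjusted p = 0.0721) and 0.97 (SE 0.28, adjusted p = 0.0947). Another Slc2a1 probe set passed (1.09, adjusted p = 0.0313), and a further one did not (0.41, adjusted p = 0.334). Hif1a differed by 0.55 (SE 0.23, adjusted p = 0.252). Pdk1, at 9.42, 9.09 and 8.09, gave the largest negative difference, -0.84 (SE 0.32, adjusted p = 0.206).

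L-GMP 1 stood apart in several members: Ldha was 8.62 there against 10.34 and 10.16, Ldhb 9.99 against 7.65 and 8.08, and Vegfa 7.39 against 5.63 and 5.12. The mature neutrophil markers summed to 818 to 21290 over the 3 arrays. Left out in turn, GMP 1, GMP 3 and L-GMP 2 each brought the count to 0, and GMP 2 and GMP 4 to 1; without L-GMP 1, Slc16a3 was higher by 1.11 (adjusted p = 0.0168) and Ddit4 by 1.45 (adjusted p = 0.0536), while Ldhb was called at -0.88 (adjusted p = 0.0273). L-GMP 1 is the one array of the group with tag A, and against the GMP arrays with that tag 0 members were called (Ddit4 2.46, adjusted p = 0.0818). Of the other lists, Eno3, the muscle enolase, was higher by 2.25 (SE 0.22, adjusted p = 0.000709), at 8.61, 8.63 and 8.60 against 5.89 to 6.62. Ak4, a mitochondrial adenylate kinase among the hypoxia response genes, was at 3.86, 3.48 and 3.73, below background, against 7.82, 8.04, 8.12 and 8.77 in GMP. Ak4 was thus lower on every L-GMP array, at least 4.86-fold by the means (adjusted p = 5.67e-05).

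**Figure D4:**
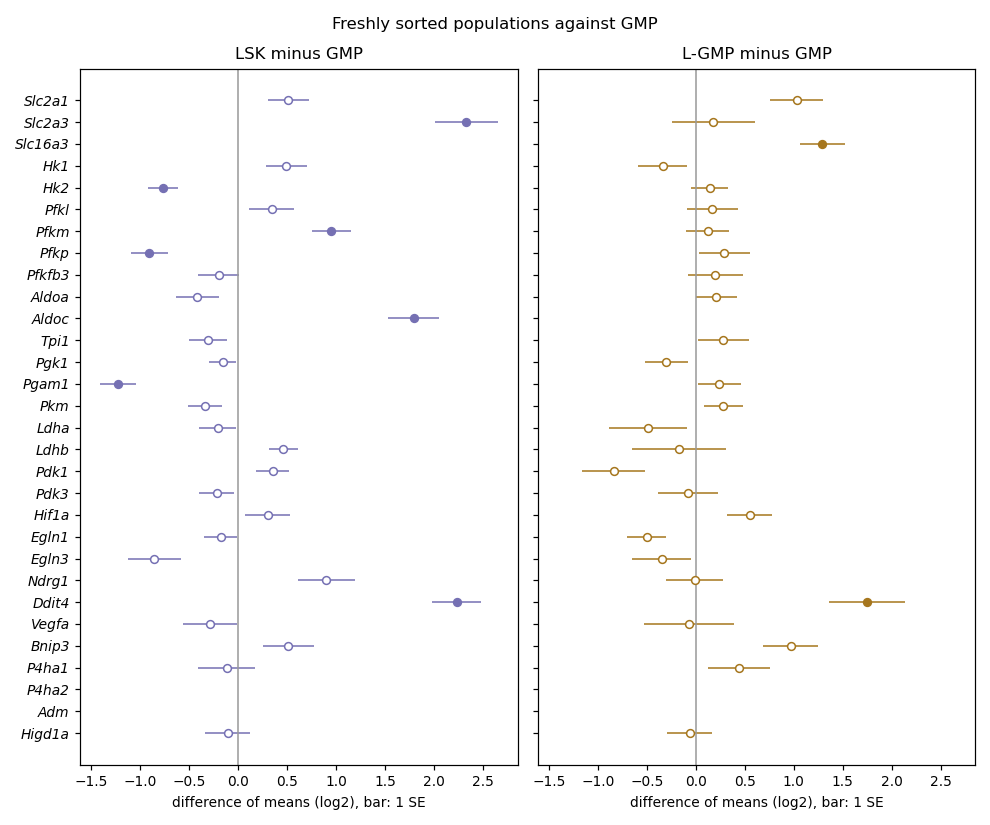
Differences of group means on the log2 scale (x axis) for each member (y axis, in pathway order): LSK minus GMP on the left and L-GMP minus GMP on the right, against the same 4 GMP arrays; bars are 1 SE, filled points passed the adjusted threshold of 0.05, and members with no point were not tested. LSK has filled points on both sides, from Pgam1 at -1.23 to Slc2a3 at 2.33, and L-GMP has Slc16a3 at 1.29 and Ddit4 at 1.75.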

How the data were processed

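Messenger RNA was measured on 24 Affymetrix Mouse Genome 430A 2.0 arrays of 22690 probe sets. Per the series design text, the authors made the deposited log2 values with GCRMA 2.4.1 from the MAS5 cell files and removed outlier arrays; the sources used here do not name them. No further normalization was applied. Precision is limited by how few arrays each group has.

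The 64 control probe sets were left out. Genes were named from the 20380 probe sets with 1 symbol, each gene by its probe set with the highest mean over all arrays. A probe set was tested where its linear value passed 60 on 2 or more arrays of either compared group, 60 being the background the design text gives; its second criterion, present calls, was not used here. limma 3.58.1 in R 4.3.3 (lmFit, eBayes) fitted the arrays of the compared groups, or all 14 transduced arrays for oncogene against oncogene, with Benjamini-Hochberg adjustment over all tested probe sets and a threshold of 0.05. Folds against a group under the background are lower bounds, taken against 60. A gene under 60 in 1 group could be tested through the other group alone. The fit was checked on simulated data. The methods' t-test of the design text, with unequal variances, was an alternative, beside quantile normalization, no filter, the mean of all probe sets, a replicate block, the tag, a shared fit and leaving out each array.

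Members, lists and comparisons were chosen with earlier results of these data known. Named are all members past the threshold; where under 2 passed in a direction, the 2 with the largest differences; from each further list up to 4 genes with the smallest adjusted p; and the 5 genes most like Slc2a1 by Pearson r. Levels per array are given for called members with the largest differences and for Hif1a, Slc2a1, Hk2, Ldha, Pdk1, Egln3, Bnip3 and Vegfa. Other names were picked with their values in view. The labels do not say whether replicate numbers in the titles pair the arrays. In no comparison was the correlation of deviations over 0.1 for every number, which cannot exclude pairing of some arrays.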

Additional observations from a re-analysis of the deposited data

Results flagged for a closer look

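One level stood far from the others of its group: Adm in MT2 replicate 1 was 4.04, against 4.57 to 4.66 on the other MT2 arrays, all of them below background. It was the 1 such level in 90 checks of groups of 4 arrays, where chance alone gives about 1 in 20.

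The other results are differences between oncogene groups that passed the direct test. Between MT2 and NHA9 these were Slc2a1 (-1.05), Slc16a3 (-1.18), Pfkl (-0.85), Aldoa (-0.53), Aldoc (-1.65), Ndrg1 (-1.48) and, with the opposite sign, Ldhb (0.69). Between MT2 and AE they were Slc2a1 (-1.02), Slc16a3 (-1.16), Hk1 (-0.76), Hk2 (-0.63), Pfkl (-0.70), Aldoc (-2.49), Pdk1 (-0.62), Ndrg1 (-1.11), Ddit4 (-1.49), Bnip3 (-0.95), P4ha2 (-2.55) and Ldhb (0.43). NHA9 and AE differed in P4ha2 (-1.77). The first 2 sets share the MT2 arrays.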

How the results depend on the processing

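For the 61 differences of called members, 1049 alternative fits gave 0 reversals; 873 kept the call and 176 lost it. Leaving out each array in turn moved the count of called members from 20 to 26 for GFP against GMP (24), 0 to 6 for MT2 against GFP (5), 0 to 1 for NHA9 against GFP (0), 0 to 5 for AE against GFP (3), 3 to 9 for MT2 against NHA9 (7), 10 to 14 for MT2 against AE (12), 0 to 3 for NHA9 against AE (1), 4 to 9 for LSK against GMP (7) and 0 to 3 for L-GMP against GMP (2); it stayed at 0 for all oncogenes. A group left with 1 array is assumed to vary like the others. With the methods' t-test the counts were 15 for GFP against GMP, 2 for MT2 against AE, 1 for LSK against GMP, 1 for all oncogenes and 0 for MT2 against GFP, AE against GFP, MT2 against NHA9, NHA9 against AE and L-GMP against GMP. Within tag A they were 1 for NHA9 against GFP, 7 for MT2 against AE and 0 for NHA9 against AE and L-GMP against GMP; AE and L-GMP have 1 array each there, so the 3 counts with AE or L-GMP speak of single arrays. With the tag as a factor over 24 arrays there were 0 for NHA9 against AE and 5 for L-GMP against GMP. A fit over 24 arrays gave 3 for MT2 against GFP and 5 for L-GMP against GMP. Quantile normalization gave 2 for NHA9 against AE, and moved the median of all probe sets from 0.08 to -0.02 in AE against GFP. The replicate block used numbers not known to pair the arrays. It gave 1 for AE against GFP, 11 for LSK against GMP and 1 for L-GMP against GMP. Elsewhere it gave counts within 1.5 times the main count. Over all probe sets the counts ran from 811 to 4043 for GFP against GMP (1782) and from 170 to 1607 for MT2 against GFP (1316) as single arrays were left out, and the methods' t-test called 0 in MT2 and in AE against GFP; the causes were not tested. The other ranges were 329 to 3061 for AE against GFP (1249), 1 to 202 for NHA9 against GFP (22), 239 to 1377 for MT2 against NHA9 (840), 408 to 1393 for NHA9 against AE (823), 765 to 2864 for LSK against GMP (1734) and 211 to 1180 for L-GMP against GMP (556). The methods' t-test called 606 probe sets for GFP against GMP, 961 for MT2 against AE (3247), 3 for MT2 against NHA9, 268 for LSK against GMP, 15 for L-GMP against GMP and 116 for all oncogenes (0). Quantile normalization shifted the split of higher to lower probe sets from 997 and 252 to 682 and 461 in AE against GFP, from 298 and 525 to 467 and 514 in NHA9 against AE, from 1160 and 574 to 1404 and 1391 in LSK against GMP and from 390 and 166 to 414 and 278 in L-GMP against GMP. Adm on all arrays, P4ha2 outside AE, Slc16a3 in GMP and LSK, and Aldoc in GMP and L-GMP lay near or under background, which limits what their levels can show.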

Other observations

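Ldha varied between arrays of 1 group. It read 10.93 and 11.05 on MT2 1 and MT2 2 and 11.84 and 11.74 on MT2 3 and MT2 4. In NHA9 it was 10.85, 10.73 and 11.88, and in AE 10.92, 11.70, 12.28 and 11.38. Slc2a1 read 10.21, 9.78 and 9.42 on the same NHA9 arrays, so that NHA9 3 was the highest for Ldha and the lowest for Slc2a1. The gap between the 3′ and 5′ Gapdh control probe sets, in array order, was 3.62, 3.96, 3.21 and 2.67 in MT2, 3.74, 4.24 and 2.58 in NHA9 and 3.91, 2.50, 2.86 and 4.07 in AE. The arrays with less Ldha in MT2 and NHA9, and AE 1 and AE 4, had the wider gaps of their group; the part of RNA quality in these levels was not tested.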
